A study of Mus musculus with 6 samples.

Results

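The CC chemokines are small secreted proteins that draw leukocytes toward the cells that release them. The genes described here are Ccl2, Ccl5, Ccl6, Ccl7, Ccl8, Ccl9, Ccl11, Ccl17, Ccl20 and Ccl22, chosen by name: every Affymetrix probe set whose single gene symbol in the platform annotation was one of these 10 was taken. This gave 12 of 45101 probe sets, 2 each for Ccl6 and Ccl9 and 1 for each of the others. All 10 genes matched the RefSeq gene table by gene identifier.

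RNA came from tumours grown from GLMT1 cells, a line named after a lung metastasis of a GRS/A mouse and inoculated under the back skin of male GRS/A hosts. The hosts were either tenascin-C-deficient GRS/A-TgH(TnC) mice (TNKO) or wild-type GRS/A mice (WT), with 3 tumours from each, described in the labels as biological replicates. Both groups had the same tumour cells, the same strain background and the same ages, 8 weeks in the design text and 10 weeks in the sample labels. Tenascin-C, a glycoprotein of the extracellular matrix, was lacking in the host; the labels do not describe the GLMT1 cells as lacking it. The whole tumour was profiled, so fewer cells of a type and less RNA per cell cannot be told apart.

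The family is named for an adjacent pair of cysteines near the amino end of the mature protein. Each ligand acts through one or a few G-protein-coupled receptors of the Ccr group, and the receptors decide which leukocytes respond. In tumours the CC chemokines are best known for bringing in monocytes that become macrophages, and also regulatory T cells, eosinophils and dendritic cells. They are made by tumour cells, fibroblasts, endothelium and the leukocytes themselves.

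In mouse many of these genes lie side by side, with more than one run of neighbours on chromosome 11. In the GRCm38.p6 RefSeq table the order of protein-coding genes there was Ccl2, Ccl7, Ccl11, Ccl12, Ccl8 and Ccl1 in one run, and Ccl5, Ccl9, Ccl6, Ccl3 and Ccl4 in another. Ccl22, Cx3cl1 and Ccl17 were neighbours on chromosome 8, and Ccl20 lay on chromosome 1. The platform files carry no genome build or coordinates.

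The start regions of Ccl6, Ccl9 and Ccl8 are shown because these 3 genes had the largest TNKO minus WT differences among the 10, and Ccl6 and Ccl9 are direct neighbours. Each is the RefSeq window of 250 bases before and 50 bases from the gene start, written 5′ to 3′ on the gene's strand. Such a window was found for 6 of the 10 genes. In Ccl6 and Ccl9 the capitals mark the stretch of each window that aligned with the other, and in Ccl8 they mark a TATAAA match.
Ccl6 (GRCm38.p6 chr11:83593038-83593337, minus strand): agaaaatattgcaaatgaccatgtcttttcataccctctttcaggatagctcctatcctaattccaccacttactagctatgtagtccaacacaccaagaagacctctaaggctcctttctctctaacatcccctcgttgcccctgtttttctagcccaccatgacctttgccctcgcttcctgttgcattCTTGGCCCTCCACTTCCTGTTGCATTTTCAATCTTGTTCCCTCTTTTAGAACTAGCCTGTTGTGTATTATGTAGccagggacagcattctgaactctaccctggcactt
Ccl9 (GRCm38.p6 chr11:83578587-83578886, minus strand): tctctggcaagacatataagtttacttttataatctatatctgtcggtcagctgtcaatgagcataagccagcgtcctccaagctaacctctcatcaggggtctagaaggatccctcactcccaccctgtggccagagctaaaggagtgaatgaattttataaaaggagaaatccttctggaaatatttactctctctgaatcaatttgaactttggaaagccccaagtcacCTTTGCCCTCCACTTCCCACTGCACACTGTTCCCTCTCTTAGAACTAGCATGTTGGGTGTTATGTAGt
Ccl8 (GRCm38.p6 chr11:82114935-82115234, plus strand): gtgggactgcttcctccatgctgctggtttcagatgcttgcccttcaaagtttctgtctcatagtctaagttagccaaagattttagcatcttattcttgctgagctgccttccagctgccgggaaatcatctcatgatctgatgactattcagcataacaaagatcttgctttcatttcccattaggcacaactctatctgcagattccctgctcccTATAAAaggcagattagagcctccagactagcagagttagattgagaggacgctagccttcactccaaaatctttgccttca

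The best local alignment of the Ccl6 and Ccl9 windows held 58 identical bases of 67 aligned (86.6%), with 7 gap bases, and covered bases 233 to 299 of the Ccl9 window, which lie around and just after its start. The longest run shared letter for letter by these 2 windows was 13 bases. In the other pairings among the 6 windows the longest shared run was 7 to 10 bases. The Ccl17 and Ccl22 windows, also from near neighbours, had a longer aligned stretch of lower identity, 73 identical bases of 104 (70.2%) with 19 gap bases.

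Motifs of 5 factors or elements were searched on both strands in the 6 windows. TATAAA was found in the Ccl8 window at base -32 from the start and at 3 places in the Ccl9 window, of which 2 overlap each other, and 13.6% of the 32851 windows of the same length held it. The NF-kappaB motif was found once in Ccl9, at base -35, and once in Ccl20, at base -80, against 8.46% of all windows. The STAT motif TTCNNNGAA was found in the Ccl17 window, at base -99 (8.3% of all windows). GAGGAA, the PU.1 core, was found in the windows of Ccl20, Ccl17 and Ccl8 (28.3% of all windows), and TTGCNNAA, for C/EBP, in none of the 6 (10.8% of all windows). A match is only a match of letters.

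The values are on the authors' normalized scale, taken as log2, and are tightly compressed. Over the 6 arrays a typical (median) probe set spanned 5.46e-06 units, so a difference cannot be read as a fold. Differences are TNKO minus WT in these units, and also as multiples of the residual SD, which is the within-group SD of that probe set. The median of TNKO tumour 3 (6.5699) lay above those of the other 5 arrays (6.5674 to 6.5676). The 18 probe sets for spiked hybridisation controls all had differences above 0, from 1.73e-07 to 6.14e-05, a range that also holds the differences of Ccl7 and Ccl22. In 16 of the 18 all TNKO arrays lay above all WT arrays. The part of hybridisation in the chemokine values was not tested. Tnc, the gene lacking in the host, stood at 8.797, 8.822 and 8.832 in TNKO hosts and 9.014, 9.043 and 8.995 in WT hosts in its brighter probe set (difference -0.201, adjusted p = 0.0537, limma). Its position in the gene was not examined, so it does not check the genotype.

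Marker genes of the tumour and its leukocytes were read on the same arrays. The 8 epithelial markers stood at 6.07 (Krt19) to 11.45 (Krt8), the 13 macrophage and monocyte markers at 5.77 (Cd163) to 11.50 (Lyz2) and the 11 T cell and NK cell markers at 5.89 to 7.07. Levels of different probe sets cannot be set against each other, and the scale has no 0 and no detection calls, so the presence or absence of a cell type could not be scored.

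None of the 12 CC chemokine probe sets passed limma's test after Benjamini-Hochberg adjustment over 45037 probe sets, with adjusted p-values of 0.145 to 0.961. Over all probe sets 79 passed (0.175%). Before adjustment 4 of the 12 had p under 0.05, those of Ccl6 and Ccl9, all higher in TNKO hosts, against 20.3% of all probe sets in either direction and 9.53% higher in TNKO hosts. These are 2 probe sets each of 2 genes. Counted by gene, from the brightest probe set, it was 2 of 10, near the 18.4% of all genes in either direction. In 6 of the 12 all TNKO tumours lay above all WT tumours, against 14.2% of all probe sets. Read from the brightest probe set of each gene, all 3 TNKO tumours lay above all 3 WT tumours for 4 of the 10 genes, Ccl2, Ccl6, Ccl8 and Ccl9. That order was seen in 15.0% of the 18193 genes, and groups that do not overlap in either direction in 26.1%. None of the 10 genes had all TNKO tumours below all WT tumours. Of the 10 genes 7 had a difference above 0 and 3 below (57.6% above 0 among all genes). Their median difference was 6.32e-05 or 0.41 residual SDs, against 2e-07 or 0.28 residual SDs over all genes.

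The CC chemokines also varied widely between tumours on this compressed scale. Of the 12 probe sets 7 spanned more than 0.001 units over the 6 arrays, and 790 of 45037 did (1.75%). The median span of the 12 was 0.00204. Ccl8 (0.025) and the brighter probe set of Ccl6 (0.0205) had the widest spans of the 12, wider than 99.6% of all probe sets. Ccl5 (4.78e-06) and Ccl20 (2.18e-06) were the exceptions and spanned no more than the median probe set.

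**Figure D1:**
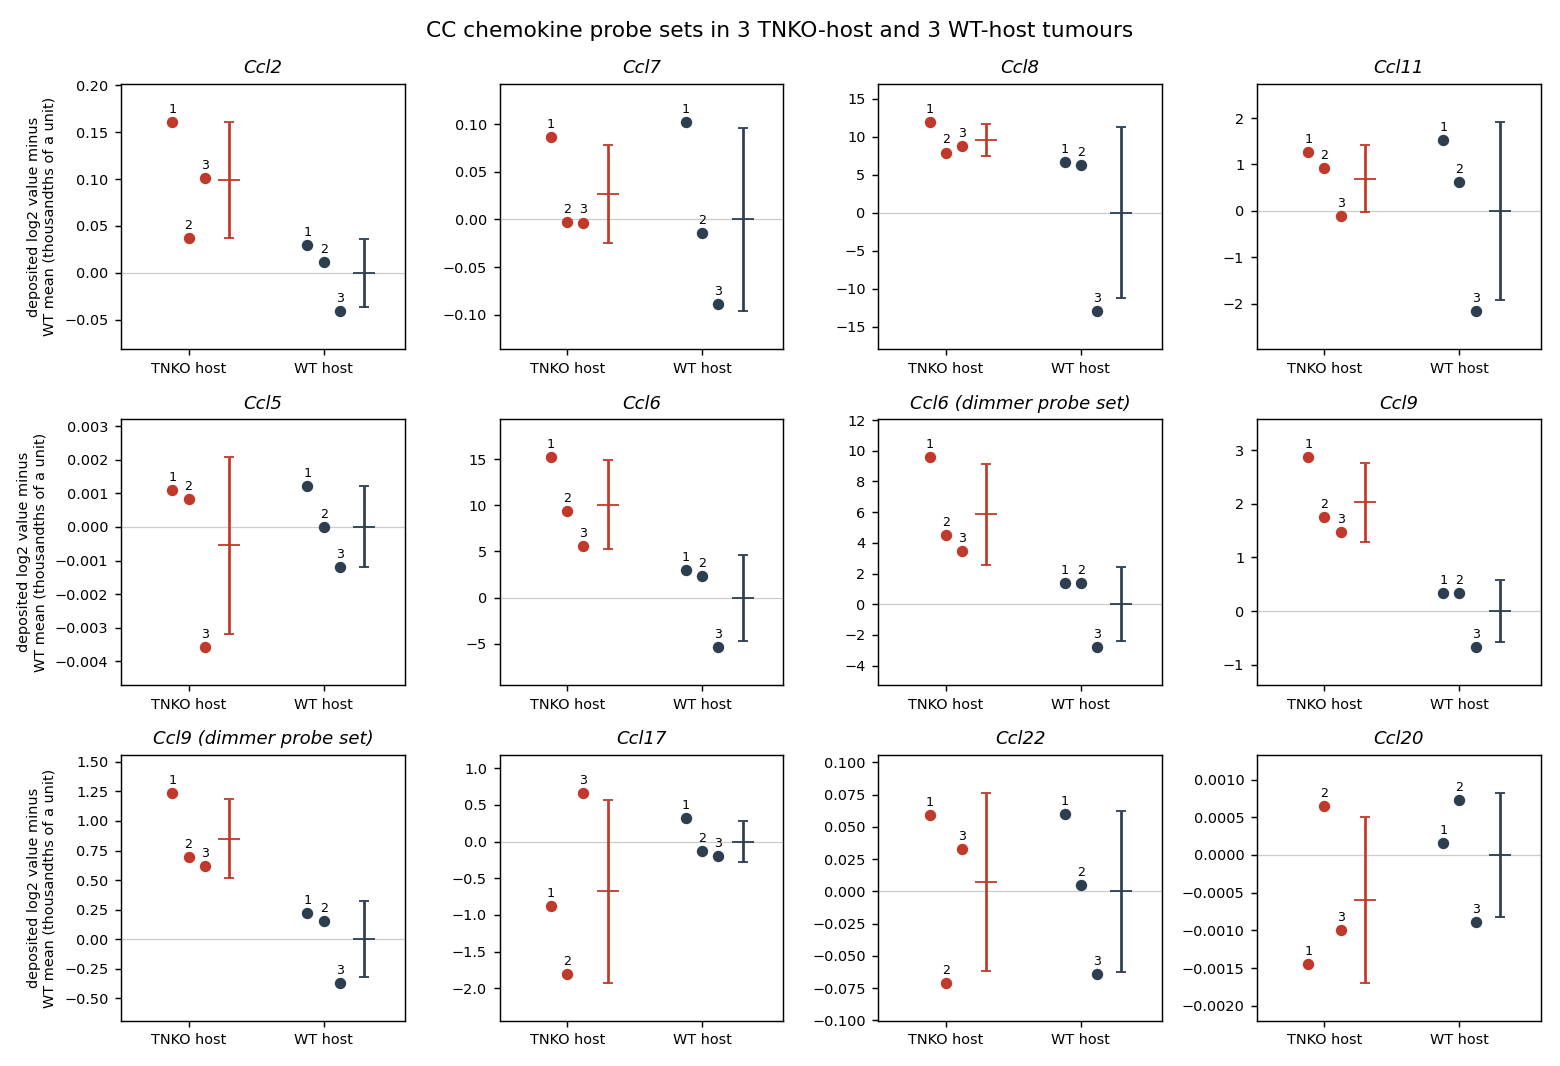
Values of the 12 CC chemokine probe sets in each tumour, as the deposited log2 value minus the WT mean of that probe set, in thousandths of a unit, on a separate vertical scale in each panel. Points are tumours numbered by replicate, with TNKO hosts in red and WT hosts in dark blue, and bars give the group mean and SD (n = 3 each). In both probe sets of Ccl6 and Ccl9, and in Ccl2 and Ccl8, the TNKO points lie above all WT points.

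Ccl6 and Ccl9 encode chemokines known from rodents that act on monocytes, macrophages and neutrophils through Ccr1. The brighter probe set of Ccl9 stood at 9.5681, 9.5670 and 9.5668 in TNKO tumours 1 to 3 and at 9.5656, 9.5656 and 9.5646 in WT tumours 1 to 3. The groups did not overlap, and WT tumour 3 was the lowest. The difference was 0.00203 (SE 0.000506, 3.06 residual SDs, limma unadjusted p = 0.0122 and adjusted p = 0.145). The dimmer probe set of Ccl9 stood at 8.5194, 8.5189 and 8.5188 in TNKO tumours and 8.5184, 8.5183 and 8.5178 in WT tumours, again with no overlap. It differed by 0.000851 (2.59 residual SDs, limma adjusted p = 0.18).

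The brighter probe set of Ccl6 stood at 8.9544, 8.9486 and 8.9448 in TNKO tumours 1 to 3 and at 8.9423, 8.9415 and 8.9339 in WT tumours 1 to 3. The extremes were TNKO tumour 1 at the top and WT tumour 3 at the bottom, as for Ccl9. The SD over 3 tumours was 0.00482 in TNKO hosts and 0.00465 in WT hosts. The difference was 0.0101 (SE 0.00362, 2.13 residual SDs, limma adjusted p = 0.229). The other probe set of Ccl6 stood at 7.2759, 7.2708 and 7.2697 in TNKO tumours and 7.2677, 7.2677 and 7.2635 in WT tumours. It differed by 0.00585 (2.03 residual SDs, limma adjusted p = 0.243). The 2 probe sets of a gene followed each other closely over the 6 arrays, with Pearson r of 0.99 for Ccl6 and 0.995 for Ccl9. Across genes, the brighter probe sets of Ccl6 and Ccl9 had r = 0.981, the highest of any 2 of the 10 genes. These correlations rest on the same 6 arrays and are given as a description.

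Ccl8, known in mouse as a ligand of Ccr8, stood at 8.8866, 8.8825 and 8.8834 in TNKO tumours 1 to 3 and at 8.8812, 8.8809 and 8.8616 in WT tumours 1 to 3. The groups did not overlap, but WT tumour 3 lay far below the other 5 arrays. The difference of 0.00959 (SE 0.00617, 1.19 residual SDs, limma adjusted p = 0.454) was 0.0031 without WT tumour 3. Ccl6 and Ccl9 moved less: without that tumour the differences were 0.0074 and 0.0017 in their brighter probe sets. Without both WT tumour 3 and TNKO tumour 1 they were 0.00484 for Ccl6, 0.00128 for Ccl9 and 0.0019 for Ccl8.

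Ccl2, the main attractant of inflammatory monocytes through Ccr2, stood at 7.84124, 7.84112 and 7.84118 in TNKO tumours 1 to 3 and at 7.84111, 7.84109 and 7.84104 in WT tumours 1 to 3. The groups did not overlap, by a narrow margin between TNKO tumour 2 and WT tumour 1. The difference was 9.94e-05 (SE 3.88e-05, 1.96 residual SDs, limma adjusted p = 0.256). Ccl7, another Ccr2 ligand and the direct neighbour of Ccl2, stood at 7.77615, 7.77606 and 7.77606 in TNKO tumours and 7.77616, 7.77605 and 7.77597 in WT tumours. Its groups overlapped, with WT tumour 1 the highest of the 6 (difference 2.69e-05, limma adjusted p = 0.848).

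Ccl11, or eotaxin, draws eosinophils through Ccr3. It stood at 7.4550, 7.4546 and 7.4536 in TNKO tumours 1 to 3 and at 7.4552, 7.4543 and 7.4515 in WT tumours 1 to 3. The groups overlapped, and only WT tumour 3 stood clearly apart (difference 0.000691, limma adjusted p = 0.782). Without WT tumour 3 the difference was -0.000388. Over the arrays Ccl11 was most like Ccl8 among the 10 genes (r = 0.888).

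Ccl5, or RANTES, which draws T cells and monocytes, stood at 10.303261, 10.303261 and 10.303257 in TNKO tumours 1 to 3. In WT tumours 1 to 3 it stood at 10.303262, 10.303260 and 10.303259. The groups overlapped and the 6 values were nearly equal (difference -5.53e-07, SE 1.57e-06, limma adjusted p = 0.887).

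Ccl17 and Ccl22 are the ligands of Ccr4, found on Th2 and regulatory T cells, and are typically made by dendritic cells and macrophages. Ccl17 stood at 6.6980, 6.6970 and 6.6995 in TNKO tumours 1 to 3 and at 6.6992, 6.6987 and 6.6986 in WT tumours 1 to 3. TNKO tumours 1 and 2 were the lowest and TNKO tumour 3 the highest of the 6, so the groups overlapped (difference -0.000678, SE 0.00069, limma adjusted p = 0.642). Without TNKO tumour 3 the difference was -0.00135 (limma adjusted p = 0.214), and without TNKO tumour 2 it was -0.000113. Ccl22 stood at 6.56686, 6.56673 and 6.56683 in TNKO tumours and 6.56686, 6.56680 and 6.56673 in WT tumours, with groups that overlapped throughout (difference 7.15e-06, limma adjusted p = 0.961).

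Ccl20, the ligand of Ccr6 on Th17 cells, B cells and some dendritic cells, spanned 2.18e-06 over all 6 arrays. It stood at 6.555058, 6.555060 and 6.555059 in TNKO tumours 1 to 3 and 6.555060, 6.555060 and 6.555059 in WT tumours 1 to 3 (difference -5.96e-07, limma adjusted p = 0.725).

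Receptors and the other ligands of the family were set beside these genes. Of 15 listed CC chemokine receptors 14 were measured, 10 with a difference above 0 and 4 below, and none passed the limma test (background 0.121% of genes). Their median was 4.73e-07 or 0.39 residual SDs, against 0.28 over all genes. At an unadjusted p under 0.05 there were 3 of 14, against 18.4% of genes. All TNKO tumours lay above all WT tumours in 2 of 14 (15.0% of genes) and below in 1.

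Ccr2, the receptor for Ccl2 and Ccl7 on inflammatory monocytes, stood at 8.02003, 8.02013 and 8.02008 in TNKO tumours 1 to 3 and at 8.01936, 8.01873 and 8.01808 in WT tumours 1 to 3. The groups did not overlap, and the TNKO tumours lay closer together than the WT tumours. The difference was 0.00136 (SE 0.000347, 2.98 residual SDs, limma unadjusted p = 0.0134 and adjusted p = 0.15). Its 3 other probe sets differed by 6.7e-05 (adjusted p = 0.139), 1.03e-05 (adjusted p = 0.848) and 8.89e-06 (adjusted p = 0.292) in the same fit. Only the first of them had groups that did not overlap.

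Ccr9, the gut-homing receptor, differed by 2.22e-05 (2.33 residual SDs, limma adjusted p = 0.205) with every TNKO tumour above every WT tumour. Ccrl2, a receptor that binds chemerin without known signalling of its own, differed by -2.39e-05 (-2.14 residual SDs, limma adjusted p = 0.228) with every TNKO tumour below every WT tumour. Ccr1, the receptor for Ccl5, Ccl6 and Ccl9, differed by 1.06e-06 (limma adjusted p = 0.889). The receptors for Ccl11, Ccl17 with Ccl22, Ccl20 and Ccl8 were Ccr3 (6.96e-07), Ccr4 (6.7e-08), Ccr6 (2.51e-07) and Ccr8 (-2.93e-08), all with overlapping groups. The groups of Ccr7 (5.28e-06), Ccr10 (-8.44e-07), Ccr1l1 (1.67e-07) and the atypical receptors Ackr1 (2.7e-05), Ackr2 (4.6e-06) and Ackr4 (-1.63e-05) also overlapped in their brightest probe sets. The 2 dimmer probe sets of Ackr2, a scavenger of inflammatory CC chemokines, did not overlap, with TNKO above WT, and differed by 3.91e-06 (limma adjusted p = 0.067) and 1.83e-06 (limma adjusted p = 0.323). Of the 4 other probe sets of Ccr9, 1 had groups that did not overlap, with TNKO above WT (difference 4.96e-06, limma adjusted p = 0.0737). That order was seen in 14.2% of all probe sets and in 16 of the 18 spiked controls. The range of the controls (1.73e-07 to 6.14e-05) holds these differences of Ackr2 and Ccr9.

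Of 11 other listed CC chemokines 8 were measured, 3 with a difference above 0 and 5 below, with none called (0.121% of all genes) and none with groups that did not overlap (26.1% of all genes). Ccl24, a further eotaxin, differed by 0.000202 (1.67 residual SDs, limma adjusted p = 0.315). Ccl12, a monocyte attractant whose gene lies between Ccl11 and Ccl8, differed by -0.000133 (limma adjusted p = 0.639). Ccl3 and Ccl4, which follow Ccl6 on chromosome 11, differed by -5.28e-06 and 1.3e-05. Ccl1 (-4.53e-07), Ccl25 (-5.49e-07), Ccl27a (-2.09e-06) and Ccl28 (1.44e-07) made up the rest.

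**Figure D2:**
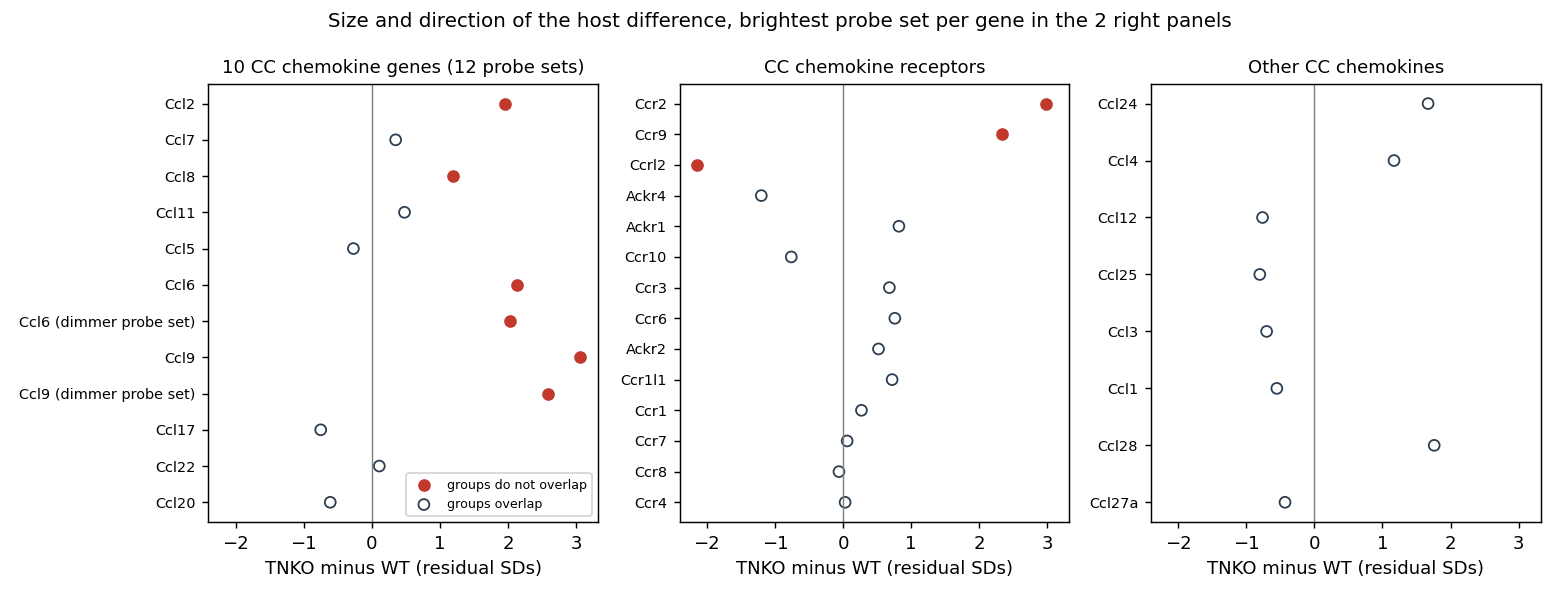
TNKO minus WT in residual SDs for the 12 probe sets of the 10 CC chemokines, the 14 measured receptors and the 8 other CC chemokines, the last 2 sets read from the brightest probe set of each gene. Filled red points mark probe sets whose TNKO and WT tumours do not overlap. The highest points are Ccl9 (3.06) and Ccr2 (2.98).

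Cytokines and NF-kappaB components that induce CC chemokines were mixed: of 19 measured 9 had a difference above 0 and 10 below, and none passed. Nfkbia, the NF-kappaB inhibitor that is itself an NF-kappaB target, differed by -1.07e-05 or -4.25 residual SDs (limma adjusted p = 0.102). Il1b differed by -0.00328 (limma adjusted p = 0.619), Tnf by 6.69e-06 (limma adjusted p = 0.307) and Il6 by 0.000133 (limma adjusted p = 0.581).

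The level of leukocyte markers was compared in the same way, and none of their genes passed. Over all genes 57.6% had a difference above 0, the share to set beside the counts of these and the other lists. Macrophage and monocyte markers had differences above 0 in 9 of 13, with a median of 0.61 residual SDs. Their summed level ran from 111.8419 to 111.8431 in TNKO hosts and from 111.8365 to 111.8418 in WT hosts. Such a sum follows its widest-spread genes and does not describe a whole list. Here that gene was Mrc1, at 8.51078 in WT tumour 3 and 8.51475 to 8.51607 in the other tumours (difference 0.00207, limma adjusted p = 0.459). Msr1, a scavenger receptor, differed by 0.000408 (limma adjusted p = 0.213) and Lyz2 by 0.000122 (limma adjusted p = 0.241), while the pan-macrophage genes Csf1r (2.67e-06) and Adgre1 (7.9e-06) had overlapping groups. Neutrophil markers had differences above 0 in 11 of 11 (summed level 75.0371 to 75.0403 in TNKO hosts, 75.0367 to 75.0376 in WT hosts). The smallest limma adjusted p among them was 0.0702, for the collagenase gene Mmp8 (difference 1.81e-05). Except for S100a8 (0.00111) and S100a9 (0.000741), their differences lay within the range of the spiked controls (1.73e-07 to 6.14e-05), which were also all above 0. The part of hybridisation in these markers was not tested.

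Dendritic cell markers had differences above 0 in 3 of 11 (summed level 91.5577 to 91.5623 in TNKO hosts, 91.5598 to 91.5644 in WT hosts). Eosinophil, mast cell and basophil markers had them in 5 of 12, T cell and NK cell markers in 6 of 11, and B cell and plasma cell markers in 6 of 7. In the last list Jchain, the joining chain of secreted immunoglobulin, differed by 0.00457 (6.33 residual SDs, limma adjusted p = 0.0702). The part of these cell types in the chemokine values was not tested.

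The arrays fell in a similar order for several of these genes. Of the 12 CC chemokine probe sets 6 had their highest value in TNKO tumour 1 and 8 their lowest in WT tumour 3. The same arrays stood at the ends of other tissue markers. All 8 adipocyte markers had their maximum in TNKO tumour 1 and their minimum in WT tumour 3, as did 9 (maximum) and 8 (minimum) of 10 endothelial markers. Fibroblast markers had WT tumour 3 as the lowest in 8 of 10, with differences above 0 in 8. Epithelial markers had differences above 0 in 2 of 8.

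The fat cell gene Fabp4 stood at 9.62, 9.46 and 9.06 in TNKO tumours 1 to 3 and at 9.16, 8.76 and 8.54 in WT tumours 1 to 3. The summed level of the 8 adipocyte markers ran from 58.49 to 61.10 in TNKO hosts and from 57.11 to 59.04 in WT hosts. That of the 10 endothelial markers ran from 70.8126 to 70.8143 in TNKO hosts and from 70.8109 to 70.8126 in WT hosts. The summed level of 10 skeletal muscle markers, all with differences below 0, ran from 63.74 to 70.55 in TNKO hosts and from 69.07 to 70.90 in WT hosts. That of 10 hair and epidermis markers ran from 60.86 to 74.56 in TNKO hosts and from 60.85 to 60.94 in WT hosts. Its high end was TNKO tumour 3 alone, with Tchh at 11.57 and Krtap8-1 at 12.60. In all other tumours these 2 genes stood at 5.49 to 5.66 and at 5.95 to 6.15. The part of these tissues in the chemokine values was not tested.

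Among 161 measured genes of the lists, those most like Ccl2 over the 6 arrays were S100a8 (r = 0.951), an alarmin of neutrophils and monocytes, Egfl7 (r = 0.941), an endothelial gene, and Cxcr2 (r = 0.933), a neutrophil chemokine receptor. Ccl17 ran against Ccl6 (r = -0.477) and Ccl5 (r = -0.578). Ccl22 was most like Ccl7 (r = 0.803), and Ccl20 had no r above 0.383 with another of the 10 genes.

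**Figure D3:**
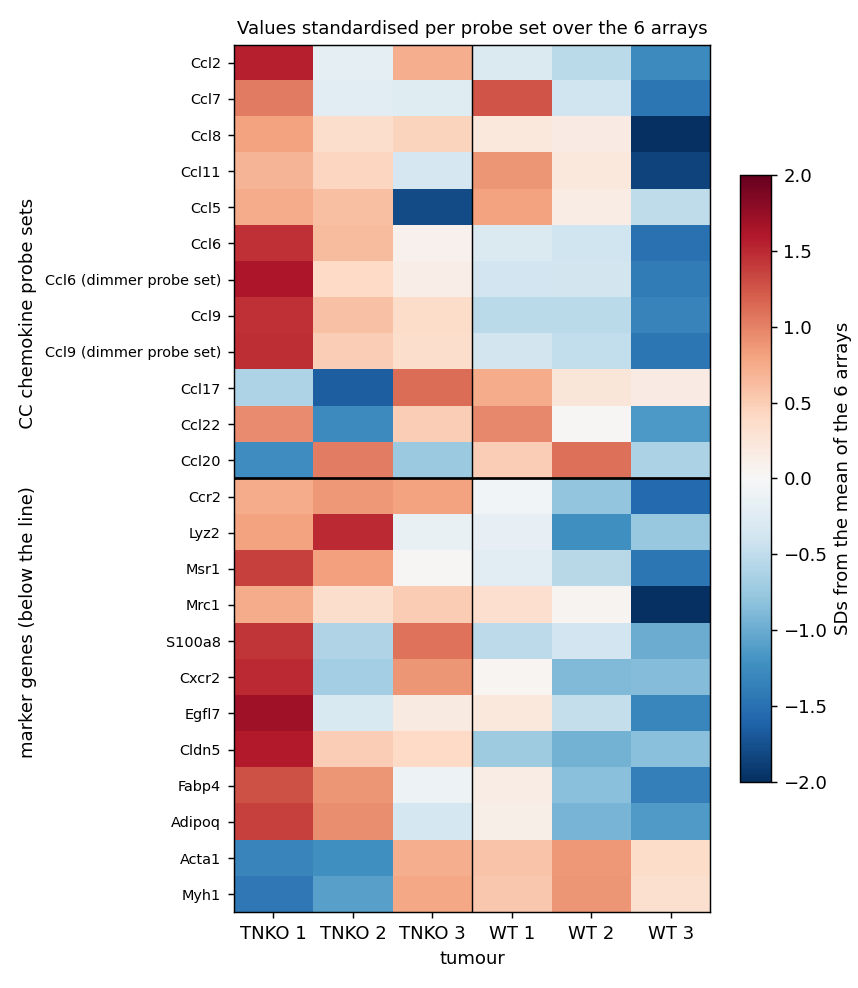
Deposited values of the 12 CC chemokine probe sets (above the line) and of 12 genes from the lists, picked after their values were seen (below it), standardised per probe set over the 6 arrays, with columns for TNKO tumours 1 to 3 and then WT tumours 1 to 3 and colour giving SDs from the mean. Ccl6, Ccl9, Msr1 and the adipocyte gene Fabp4 are highest in TNKO tumour 1 and lowest in WT tumour 3, whereas the muscle genes Acta1 and Myh1 are lowest in TNKO tumours 1 and 2.

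Rescaling moved the differences downward together. Over all probe sets the median difference was -0.000538 after quantile normalization and -0.000782 after subtraction of array medians. The brighter probe set of Ccl6 stayed above 0 (0.00932 and 0.00929), with no overlap between the groups under either. Ccl8 (0.00925 and 0.00881) and the brighter probe set of Ccl9 (0.00125 and 0.00125) also stayed above 0, though the Ccl9 groups then overlapped under both and the Ccl8 groups under subtraction of medians. Ccl2 was at -0.000238 and -0.000683; subtraction of medians lowers every difference by the same amount, so smaller differences above 0 had to turn. Ccl17 (-0.00119 and -0.00146) then had all 3 TNKO tumours below all WT tumours, although TNKO tumour 3 was its highest as deposited. The median of that array lay 0.00234 above the mean of the WT medians, against -3e-05 and 3.61e-05 for TNKO tumours 1 and 2. After quantile normalization 2 of the 10 genes had all TNKO tumours above all WT tumours (0.17% of all genes) and 1 had all below (14.1%). After subtraction of medians 1 of the 10 had all above (0.176%) and 1 all below (1.42%). A typical probe set spanned 5.46e-06 units, so its own value in TNKO tumour 3 was not higher by anything near 0.00234. Subtraction of medians still lowers every value of that array against the others by that offset. The order of Ccl17 under that scaling rests on it, and few probe sets kept all TNKO tumours above under either scaling. The shares are therefore no fair background for Ccl6 and Ccl8, which spanned 0.0205 and 0.025. None of the 12 probe sets passed the limma test under either scaling. With medians subtracted their unadjusted p-values followed the size of the difference and not its own spread. They ran from 0.713 for Ccl6 (0.00929, the largest) to 0.998 for the dimmer probe set of Ccl9 (6.88e-05). Differences of this size could not pass there, so that outcome is no evidence on the chemokines.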

How the data were processed

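RNA of 6 tumours, 3 from TNKO and 3 from WT hosts, was measured on 1-colour Affymetrix arrays from 100 ng of total RNA each, per the labels. The authors deposited 1 normalized value per probe set and array, taken as log2 from its range; how they were summarized and normalized, and the log base, is not given in the sources used here. Per the submitters' processing notes, R 2.7.2 was used. Precision is limited by the number of arrays.

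Without 64 control probe sets there were 45037, of which 34945 had 1 gene symbol, 932 several and 9160 none in the platform's annotation. A gene was read from its brightest probe set. TNKO was compared with WT with lmFit and eBayes of limma 3.58.1, run in R 4.3.3 (two-sided, Benjamini-Hochberg adjustment over 45037 probe sets, threshold 0.05). A probe set with a suffix of _s_at or _x_at can also bind related transcripts; the dimmer one of Ccl6 is of this kind. The 10 genes and the lists (161 of 178 genes measured) were chosen with earlier results of these data known. Named were all probe sets of the 10 genes, all measured receptors and other CC chemokines, Tnc, and from each other list up to 3 genes by unadjusted p, with the 3 list genes most correlated with Ccl2. Tnf, Il6, Il1b, Adgre1, Csf1r, Cd163, Krt8 and Krt19 were added after their values were seen. Windows were aligned with Biopython 1.88. The fit was tested on simulated data, where limma recovered 3 of 50 probe sets changed by 5 residual SDs, 39 of 50 at 10 and 48 of 50 at 20. There were 3 false calls among the unchanged probe sets. The simulated noise was independent, with no shared array effect, so this count need not hold for the real arrays. The largest chemokine difference, 3.06 residual SDs, was below the smallest size simulated. Not passing therefore does not show that a chemokine was unchanged. The alternatives were 2 scalings, variance models, array weights, a filter on dim probe sets, an offset of 16, a replicate block, probe set means and leaving out arrays.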

Additional observations from a re-analysis of the deposited data

How the results depend on the processing

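None of the 12 CC chemokine probe sets passed under any alternative run, and 20 of the 134 comparisons with an alternative that can move the difference changed sign. Over all probe sets the 79 calls were 0 after quantile normalization (593 at an unadjusted p under 0.05), 285 among the brighter probe sets alone, 0 with a replicate block (7816 at an unadjusted p under 0.05) and 0 to 73 with 1 array left out. They were 0 without TNKO tumour 1 and WT tumour 3 together, an alternative chosen after seeing the data (5353 at an unadjusted p under 0.05). The labels do not say whether same-numbered tumours were paired. Their deviations correlated at 0.029, -0.016 and 0.005, which with 3 tumours per group cannot settle it. With the replicate block the smallest adjusted p of the CC chemokines was 0.19, against 0.145 without it. Subtraction of array medians called 68 of 45037 probe sets, 58 higher and 10 lower in TNKO hosts. As deposited 19 were higher and 60 lower. Of the 68, 14 were in the lists, which include muscle, adipocyte and hair markers and had 0 calls otherwise. Under this scaling the brighter probe set of Ccl6, at 0.00929, had a limma unadjusted p of 0.713, against 0.0425 at 0.0101 as deposited. Its groups still did not overlap. The p-values of the 12 probe sets followed the size of the difference there, so 0.713 does not measure the spread of Ccl6 between tumours. As deposited no receptor differed by more than 0.00136 (Ccr2) and no leukocyte marker by more than 0.00457 (Jchain). Larger differences were in the tissue lists, such as -1.65 for Myh1, 0.952 for Adipoq and 2.23 for Krtap8-1. The number of the 10 genes lower in TNKO hosts, 3 as deposited, was 6 after quantile normalization, 7 with array medians subtracted, 2 to 6 with 1 array left out and 6 without TNKO tumour 1 and WT tumour 3. The cause was not tested.

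Signs turned after quantile normalization for Ccl2 (-0.000238), Ccl7 (-0.000748), Ccl22 (-0.000688) and the dimmer probe set of Ccl9 (-0.000616), and with array medians subtracted for Ccl2 (-0.000683), Ccl7 (-0.000755), Ccl11 (-9.07e-05) and Ccl22 (-0.000775). Subtraction of medians shifts every difference by -0.000782, so that any smaller difference above 0 turns by construction. With array weights Ccl22 was at -1.2e-06. Without TNKO tumour 1 and WT tumour 3 together Ccl7 was at -4.71e-05, Ccl11 at -0.000677 and Ccl22 at -5.12e-05. With 1 array left out the difference ran from -0.000388 to 0.00146 for Ccl11, from -2.5e-05 to 4.62e-05 for Ccl22, from -1.37e-06 to 9.58e-07 for Ccl5 and from -1.72e-05 to 7.83e-05 for Ccl7. Over these fits Ccl8 (0.0031 to 0.0129) and the brighter probe sets of Ccl6 (0.0074 to 0.0123) and Ccl9 (0.00162 to 0.00231) kept their sign.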
